A study of Mus musculus with 20 samples.

Results

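The mitochondrial genome of the mouse encodes 37 genes, and all 37 were present by name (prefix mt-) among the 50600 gene rows of the expression tables for eosinophils and for macrophages sorted from mouse colon. They comprise 13 protein-coding genes, 2 ribosomal RNAs and 22 transfer RNAs. The 20 libraries, all from C57BL/6 mice, fell into 4 groups: eosinophils of naive colon (2 libraries), eosinophils from within tumors (7), macrophages of naive colon (5) and macrophages from within tumors (6). The tumors arose after induction of a disease state that the labels abbreviate as CAC. The cells were separated by flow cytometry after the colon had been digested with enzymes. RNA was read by CEL-Seq, which primes on poly(A) tails and tags each transcript near its 3′ end with a library barcode. The labels give no ages, sorting markers or animals behind a library, so p-values measure the spread between these libraries, which may be technical in part. In bulk RNA of this kind, fewer cells of a type and less RNA per cell cannot be told apart.

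Mitochondrial DNA is a small circle that is transcribed from both strands into long precursors, which are cut at the transfer RNAs that separate most genes. The proteins it encodes are membrane core subunits of respiratory complexes I, III and IV and of the ATP synthase, complex V, and each of those complexes also needs many nuclear-encoded subunits. Most mitochondrial mRNAs carry a short poly(A) tail, so a method that primes on poly(A) captures them. Eosinophils are granulocytes and macrophages are tissue phagocytes, and both reside in the healthy gut wall.

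The sorted cells differed by the markers of their labels, and markers of other cells were present too. In naive colon 8 of 12 eosinophil markers were higher in eosinophils and 1 lower (limma, adjusted p under 0.05). All 12 macrophage markers were lower there. In tumors 11 of 12 eosinophil markers were higher in eosinophils and 11 of 12 macrophage markers lower. Of all genes, 14.7% were higher and 15.5% lower in naive colon, and 18.9% and 24.2% in tumors. Scaled to 1000000 nuclear reads (nuclear CPM), macrophage markers summed to 22050 to 37009 in the macrophage libraries and to 445 to 2052 in the eosinophil libraries, and eosinophil markers to 1284 to 11680 in eosinophils and 9.12 to 78.6 in macrophages. Neutrophil markers also summed to 7368 to 17218 in the eosinophil libraries, above the eosinophil markers in all 9, and to 28.8 to 959 in the macrophage libraries. B and plasma cell markers summed to 5938 to 21507 in eosinophils and 10361 to 84554 in macrophages. Their mean sum exceeded that of the label's own markers in each group. It was 7605 against 2789 in naive and 15802 against 3445 in tumor eosinophils. In macrophages it was 59689 against 26320 in naive colon and 35709 against 30378 in tumors. The part of these other cells in the differences between cell types was not tested. Depth ran from 1477255 to 8520874 reads per library.

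Several members cannot be read in isolation, because nuclear DNA holds copies of mitochondrial sequence. Of all 50-base words of each transcript, the share that also occurs in a nuclear GENCODE M21 transcript was 100% for mt-Co2, 99.9% for mt-Co3, 99.5% for mt-Atp6, 98.8% for mt-Nd4l, 98.0% for mt-Nd3, 62.2% for mt-Nd4 and 51.1% for mt-Co1. It was 8.19% for mt-Nd2 and 7.61% for mt-Nd5, and 0% for mt-Nd1, mt-Nd6, mt-Cytb and mt-Atp8. The copies of the first 7 genes lie side by side on chromosome 1 (GRCm38), minus strand, as unprocessed pseudogenes from Gm28439 (24611535 to 24612410, a copy of mt-Nd4) to Gm29216 (24615706 to 24616197, a copy of part of mt-Co1). The sources used here do not say how the authors assigned reads shared by such copies, so values of genes with such copies are uncertain. In the last 100 bases, nearest to where a 3′ method reads, 6 of these 7 share at least 90% of their words with a nuclear transcript, and mt-Nd4 shares 0 of 51. The annotated copies held reads of their own. Gm13341, a copy of part of mt-Co2 on chromosome 2, had 1585 in all eosinophil libraries together and 3867 in all macrophage libraries, Gm13340 (mt-Co1) had 962 and 1282, Gm13339 (mt-Nd2) 602 and 681, and Gm10925, the copy of mt-Atp6 at 24613974 to 24614651, 121 and 138.

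The last 60 bases of 3 members are shown with their copies, since a 3′ method reads mostly from this end. For mt-Atp6 (chrM:8548-8607, plus strand, coding exon) the copy is the same letter for letter up to its own end, 3 bases earlier. For mt-Nd2 (chrM:4892-4951, plus strand, coding exon) capitals mark the bases at which the copy Gm13339 on chromosome 2 (22590024 to 22590533, minus strand) differs. No nuclear transcript shares a 50-base word with mt-Cytb (chrM:15229-15288, plus strand, coding exon).
mt-Atp6: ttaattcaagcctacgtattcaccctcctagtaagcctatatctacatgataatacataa
Gm10925: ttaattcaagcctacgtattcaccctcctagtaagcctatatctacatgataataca
mt-Nd2: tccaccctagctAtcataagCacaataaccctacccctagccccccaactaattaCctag
Gm13339: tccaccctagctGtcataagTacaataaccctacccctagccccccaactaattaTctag
mt-Cytb: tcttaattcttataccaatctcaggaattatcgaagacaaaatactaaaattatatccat

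Neighbouring genes also overlap, and these ends are shown because reads in shared bases could be placed on either gene. Whether this bears on the low counts of mt-Atp8 and mt-Nd6 was not tested. The last 43 bases of mt-Atp8 (chrM:7910-7969) are also the first of mt-Atp6 on the same strand. The last 14 bases of mt-Nd5 (chrM:13506-13565, plus strand) and of mt-Nd6 (chrM:13552-13611, minus strand) are the same stretch read in opposite directions. Capitals mark the shared bases. The sources used here do not say whether the strand was used in counting. Reads in bases shared by opposite genes therefore cannot be told apart. Nor is it known whether the counts of a gene include RNA of the opposite strand.
mt-Atp8: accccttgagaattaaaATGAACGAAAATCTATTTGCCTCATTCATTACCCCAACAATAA
mt-Nd5: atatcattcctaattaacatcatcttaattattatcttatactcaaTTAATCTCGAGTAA
mt-Nd6: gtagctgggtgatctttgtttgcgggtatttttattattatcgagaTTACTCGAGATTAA

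Mitochondrially encoded transcripts made up between 8.23% and 35.2% of the reads of a library, and in tumors the share of every eosinophil library lay above that of every macrophage library. It was 17.9% and 24.5% in the 2 naive eosinophil libraries, a mean of 21.2% ± 4.70 (SD, n = 2). The tumor eosinophil libraries 1 to 7 had 25.1%, 34.9%, 35.2%, 16.7%, 15.2%, 18.1% and 23.9%, a mean of 24.2% ± 8.28 (n = 7). The naive macrophage libraries 1 to 5 had 15.9%, 8.28%, 10.6%, 8.89% and 13.3%, a mean of 11.4% ± 3.18 (n = 5). The tumor macrophage libraries 1 to 6 had 10.3%, 9.62%, 10.4%, 9.53%, 9.04% and 8.23%, a mean of 9.52% ± 0.806 (n = 6). Tumor macrophages were thus the most even group, with a coefficient of variation of 8.47%, against 34.3% in tumor eosinophils and 27.9% in naive macrophages.

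**Figure D1:**
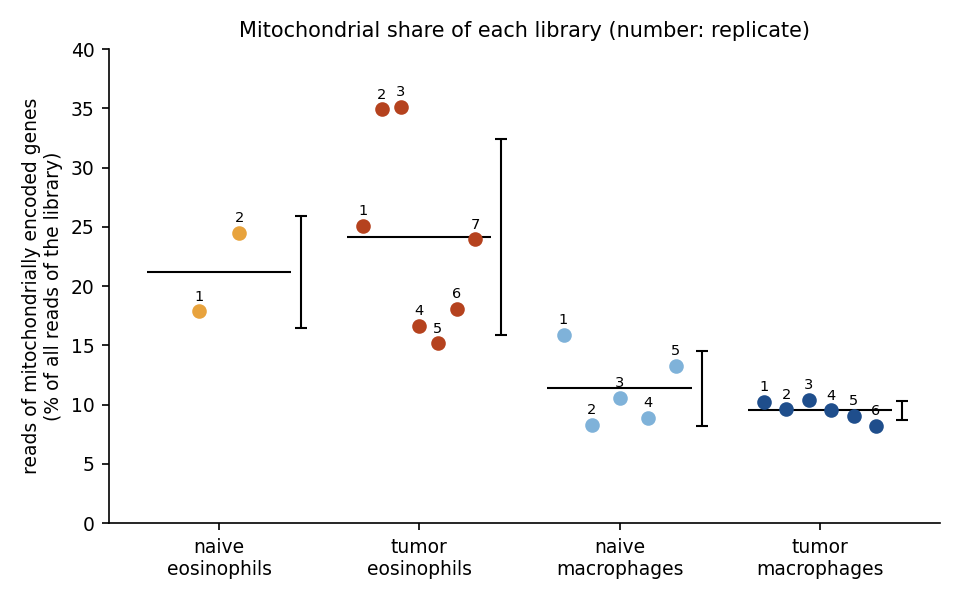
Share of each library's reads that came from mitochondrially encoded genes, in percent, for the 4 groups; each point is a library with its replicate number, the line is the mean and the bar at its side ± 1 SD. The 7 tumor eosinophil libraries, 15.2% to 35.2%, all lie above the 6 tumor macrophage libraries, 8.23% to 10.4%.

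In tumors, the eosinophil share exceeded the macrophage share by 14.6 percentage points, and 7 of 7 eosinophil libraries lay above all 6 macrophage libraries (two-sided exact permutation test, p = 0.00117, the smallest this design can give; 0.00466 after Benjamini-Hochberg adjustment over 4 comparisons of shares). Without tumor eosinophil libraries 1 to 3 the difference was 8.95 points. In naive colon the difference was 9.82 points and the groups did not overlap either, but 2 libraries against 5 cannot give an exact permutation p below 0.0952, which is the value found (adjusted p = 0.190). Between tumor and naive eosinophils the share differed by 2.95 points (exact permutation p = 0.833, adjusted p = 0.833), and between tumor and naive macrophages by -1.86 points (exact permutation p = 0.238, adjusted p = 0.317). Neither tumor effect passed, and each pair of groups overlapped.

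The libraries within a group were not alike, and the nuclear genes show how they split. Among macrophage libraries, the leading component of the deviations of 4849 nuclear genes from their group means held 39.2% of that variance, and its loadings had 1 sign in naive libraries 2 and 4 and tumor libraries 3 to 6 (0.213 to 0.360) and the other in naive libraries 1, 3 and 5 and tumor libraries 1 and 2 (-0.458 to -0.201). The first 6 libraries were also the deeper on average, with 5676284 to 7945096 reads, against 1477255 to 5956352 in the other 5. In the first set the mitochondrial share was 8.58% ± 0.426 (n = 2) in naive and 9.30% ± 0.911 (n = 4) in tumor macrophages, a tumor minus naive difference of 0.72 points. In the second set it was 13.2% ± 2.66 (n = 3) and 9.95% ± 0.457 (n = 2), a difference of -3.30 points. The sign of the difference was thus not the same in both sets. In the second set all 3 naive libraries (10.6% to 15.9%) lay above both tumor libraries (9.62% and 10.3%), while in the first the groups overlapped. Exact permutation tests of groups this small cannot go below 0.133 in the first set and 0.200 in the second, and gave 0.400 and 0.200, so they decide nothing. What the sets stand for is not given by the labels.

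Tumor eosinophil libraries 1, 2 and 3 stood apart in the same way. In eosinophils the leading component held 37.9% of the within-group variance of 3680 nuclear genes, with loadings of -0.572 to -0.284 in these 3 libraries and 0.186 to 0.480 in tumor libraries 4 to 7. The same 3 libraries held the highest mitochondrial shares and the highest sums of epithelial markers, 7697, 8635 and 8481 nuclear CPM, against 2224 to 3581 in the other 4 tumor and 2300 to 3355 in the 2 naive libraries. All 12 epithelial markers had reads in all 9 eosinophil libraries, except Fabp2, which was at 0 in tumor library 1. The part of other cells in the mitochondrial share was not tested. Without the 3 libraries the tumor minus naive difference of the eosinophil share was -2.74 points in place of 2.95.

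**Figure D2:**
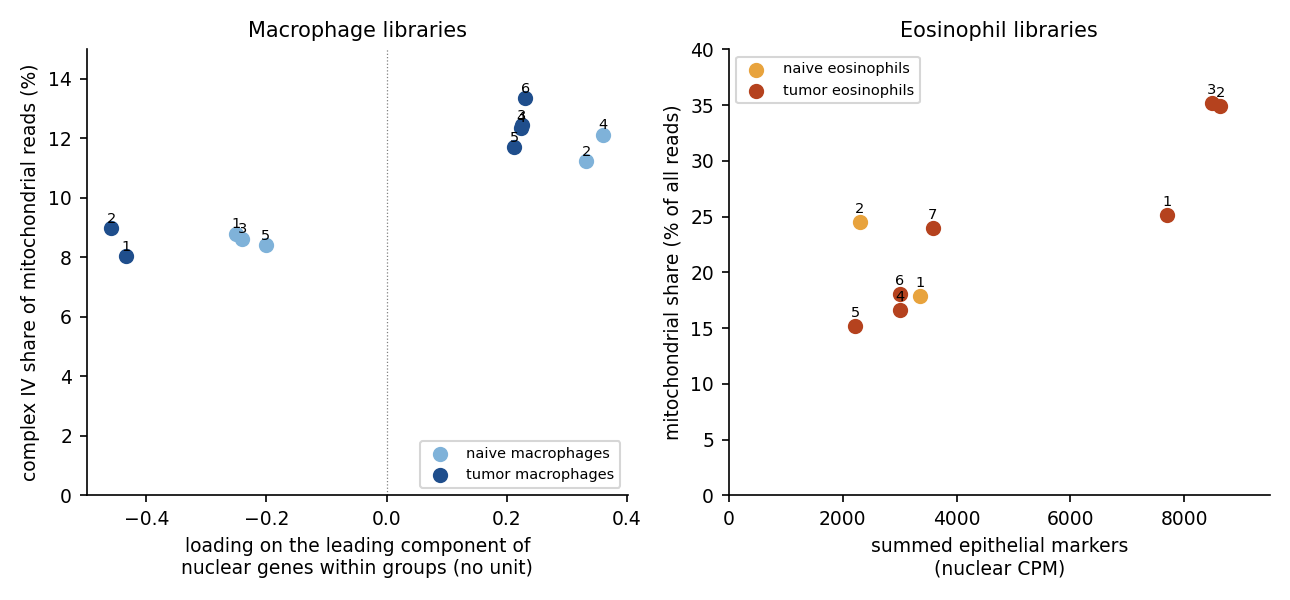
Left, complex IV share of mitochondrial reads (percent) against the loading of each macrophage library on the leading component of nuclear genes within groups; right, mitochondrial share of all reads (percent) against summed epithelial markers (nuclear CPM) for each eosinophil library. Points are libraries with their replicate numbers: macrophage libraries with loadings below 0 hold 8.04% to 8.99% complex IV reads and the others 11.2% to 13.3%, and tumor eosinophil libraries 1 to 3 lie at the right.

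Gene by gene, transcripts of complexes I, III and V were mostly higher in eosinophils than in macrophages. Those of complex IV differed less, and the minus-strand mt-Nd6 was lower. Of the 37 members, 19 reached the filter of 10 in at least 2 libraries and were tested with limma on reads scaled jointly by TMM factors. The other 18, all of them transfer RNAs or ribosomal RNAs, had too few reads. In tumors 11 of the 19 were higher in eosinophils and 1 was lower at an adjusted p under 0.05, where 43.1% of all 14992 genes were called (18.9% higher and 24.2% lower). In naive colon 8 were higher and 3 lower, where 30.2% of all genes were called (14.7% higher and 15.5% lower). Of those 3, mt-Tp reached the filter in 2 naive macrophage libraries alone, so it was selected through the group where it is high. It was also called with no filter, but had no read in naive eosinophils, and its call is not used as support. Beside these counts, the median log2 difference of the tested members was 0.94 in tumors and 0.74 in naive colon, against -0.06 and 0 for all genes.

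Complex V gave the most abundant transcript. mt-Atp6, which encodes subunit a of the proton channel of the ATP synthase, ranked first among all genes in each of the 9 eosinophil libraries and second or lower in the macrophage libraries. It held 77489 and 98537 CPM (reads scaled to 1000000 reads of the library, mitochondrial ones included) in naive eosinophils, and in the 7 tumor eosinophil libraries 69921 at the lowest, 109657 at the median and 188359 at the highest. In naive macrophages 1 to 5 it held 70258, 29755, 44774, 30771 and 51727, and in tumor macrophages 30190 at the lowest, 38924 at the median and 44785 at the highest. Naive macrophage library 1 thus reached the level of the lowest tumor eosinophil library, and all other macrophage libraries lay below every eosinophil library. The log2 difference was 1.94 ± 0.34 (SE) in tumors (limma, adjusted p = 7.3e-05) and 1.52 ± 0.51 in naive colon (limma, adjusted p = 0.0254). The naive call was lost with no filter on low values (adjusted p = 0.109), when reads were scaled by the column sum (1.02, adjusted p = 0.0811) or by nuclear reads (1.19, adjusted p = 0.0641), and without naive eosinophil library 2 or naive macrophage library 2 or 4. Per kilobase of annotated length, the mean normalised value of mt-Atp6 was 704973 in the eosinophil table and 244859 in the macrophage table, the highest of all members in each.

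The counts of mt-Atp8, the other ATP synthase subunit encoded there, did not follow. Its last 43 bases overlap mt-Atp6 with no transfer RNA between them, so these counts may not stand for a transcript of its own. It held 120 and 254 CPM in naive eosinophils and 251 to 400 in naive macrophages, and 128 to 405 in tumor eosinophils and 143 to 428 in tumor macrophages. The groups overlapped, and the log2 difference was 0.08 ± 0.25 in tumors (limma, adjusted p = 0.827) and -0.30 ± 0.38 in naive colon (limma, adjusted p = 0.601).

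Complex I, the entry point for electrons from NADH, has 7 subunits encoded in mitochondrial DNA, and 6 of them were higher in tumor eosinophils than in tumor macrophages. mt-Nd4 held 36887 and 65762 CPM in naive eosinophils, 32568 to 69927 in tumor eosinophils (median 50275), 15364 to 25116 in naive macrophages (median 17425) and 11910 to 18050 in tumor macrophages (median 16475). No macrophage library reached an eosinophil library. The log2 difference was 1.98 ± 0.28 in tumors (limma, adjusted p = 5e-06) and 1.87 ± 0.42 in naive colon (limma, adjusted p = 0.00134), the latter not called without naive eosinophil library 2.

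The other plus-strand subunits of complex I differed less. Of these, mt-Nd4l (chrM:9877-10173) overlaps mt-Nd4 (chrM:10167-11544) with no transfer RNA between, so its counts may not stand for a transcript of its own. mt-Nd1 was at 13860 and 22410 CPM in naive eosinophils, 10943 to 31746 in tumor eosinophils, 8184 to 16670 in naive macrophages and 8377 to 10031 in those of tumors. mt-Nd4l was at 904 and 426 CPM in naive eosinophils, 505 to 1097 in tumor eosinophils, 286 to 525 in naive macrophages and 196 to 403 in those of tumors. In tumors the eosinophil libraries lay above the macrophage libraries for both genes. mt-Nd5 was at 2833 and 2296 CPM in naive eosinophils, 2230 to 4283 in tumor eosinophils, 1590 to 2796 in naive macrophages and 1501 to 2389 in those of tumors. mt-Nd3 was at 2437 and 3590 CPM in naive eosinophils, 1854 to 7249 in tumor eosinophils, 1056 to 3050 in naive macrophages and 1051 to 1835 in those of tumors. For each of these 4 genes at least 1 naive macrophage library reached the eosinophil range. mt-Nd2 held 23972 and 28194 CPM in naive eosinophils and 16632 to 26464 in tumor eosinophils, against 10107 to 20054 in naive macrophages and 9091 to 12261 in those of tumors, so the cell types overlapped in naive macrophages alone. Its log2 difference between cell types was 1.46 ± 0.23 in tumors and 1.36 ± 0.35 in naive colon. mt-Nd1, which has no nuclear copy among annotated transcripts, had log2 differences of 1.42 ± 0.27 and 1.20 ± 0.41, and mt-Nd4l had 1.71 ± 0.22 and 1.28 ± 0.34. mt-Nd5 had the smallest, 1.19 ± 0.18 in tumors and 0.75 ± 0.28 in naive colon. mt-Nd1, mt-Nd2, mt-Nd4l and mt-Nd5 passed the limma test in both comparisons, whereas mt-Nd3 passed it in tumors alone, with 1.65 ± 0.31 there and 1.22 ± 0.47 in naive colon (adjusted p = 0.0547). In tumors the calls of these genes held under the other scalings and filters run, but the naive calls did not all hold. With column-sum or nuclear-read scaling mt-Nd1, mt-Nd4l and mt-Nd5 were no longer called in naive colon (adjusted p of 0.0915 for mt-Nd4l and 0.529 for mt-Nd5 with the column sum), and with no filter mt-Nd1 and mt-Nd5 were not. Without naive eosinophil library 2, mt-Nd4l alone among the complex I genes was called, and without naive macrophage library 2 or 4, mt-Nd1 and mt-Nd5 were lost. mt-Nd4l and mt-Nd5 were lost without naive eosinophil library 1, and mt-Nd5 also without naive macrophage library 3 or tumor macrophage library 4 and with median-of-ratios scaling.

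Complex III has a single subunit from this genome, cytochrome b. Its transcript mt-Cytb held 11332 and 15559 CPM in naive eosinophils, 9337 to 22845 in tumor eosinophils, 5838 to 8441 in naive macrophages and 5042 to 7572 in tumor macrophages. The eosinophil and macrophage libraries did not overlap. The log2 difference was 1.60 ± 0.24 in tumors (limma, adjusted p = 9e-06) and 1.44 ± 0.35 in naive colon (limma, adjusted p = 0.00329), and no annotated nuclear copy shares its words. The naive call was lost without naive eosinophil library 2.

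Complex IV, cytochrome c oxidase, departed from the rest. mt-Co1, its catalytic subunit, held 2988 and 3096 CPM in naive eosinophils and 2746 to 4815 in tumor eosinophils, against 2751 to 4765 in naive macrophages and 2959 to 5593 in those of tumors. The cell types overlapped, and the log2 difference was 0.18 ± 0.21 in tumors (limma, adjusted p = 0.487) and 0.15 ± 0.31 in naive colon (limma, adjusted p = 0.763). mt-Co2 was at 4125 and 3458 CPM in naive eosinophils, 3350 to 8858 in tumor eosinophils, 3512 to 5964 in naive macrophages and 3513 to 4808 in those of tumors. mt-Co3 was at 1707 and 1719 CPM in naive eosinophils, 1441 to 4377 in tumor eosinophils, 1891 to 3228 in naive macrophages and 1716 to 2563 in those of tumors. The cell types overlapped for both. mt-Co3 had a log2 difference of 0.52 ± 0.24 in tumors (adjusted p = 0.0793) and 0.08 ± 0.36 in naive colon, and neither passed. mt-Co2 was higher in tumor eosinophils (0.78 ± 0.23, limma, adjusted p = 0.00980) but did not pass in naive colon (0.25 ± 0.35). The tumor call of mt-Co2 was lost when reads were scaled by the column sum (0.36, adjusted p = 0.185) or by nuclear reads (0.62, adjusted p = 0.0538), and without tumor eosinophil libraries 1 to 3 (0.35, adjusted p = 0.147). The sign for mt-Co1 depends on the scaling: relative to all reads, where the median of all genes shifts to -0.45, it was -0.23 in tumors and -0.35 in naive colon.

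**Figure D3:**
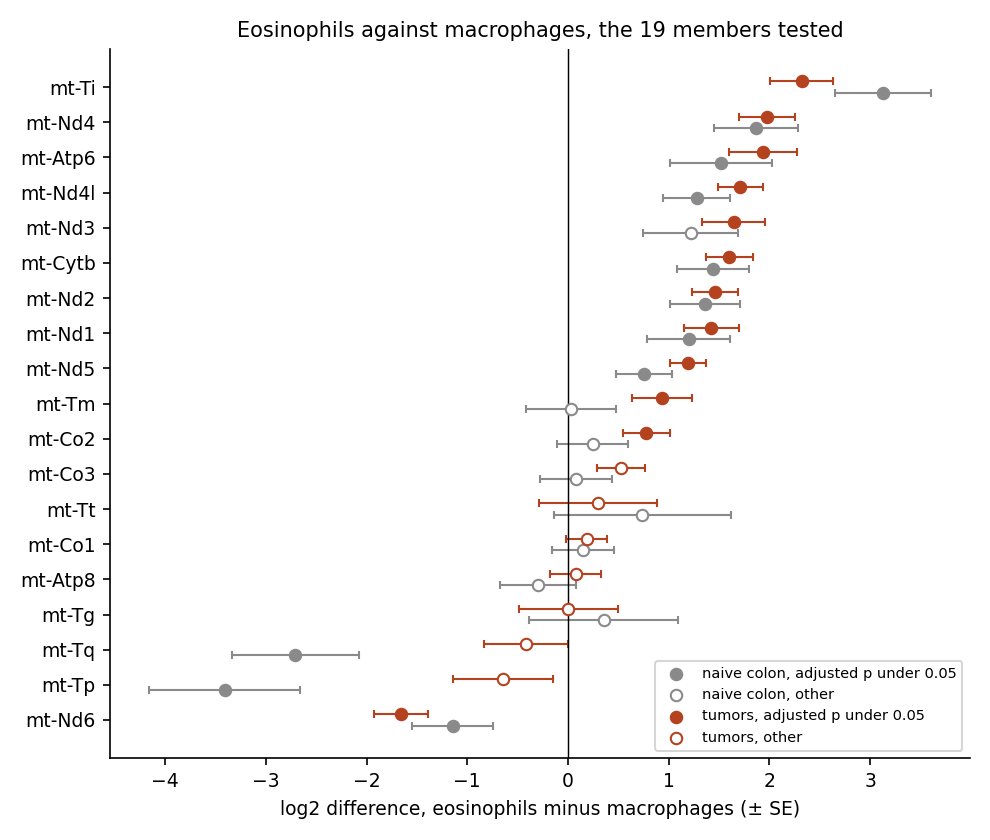
Log2 difference between eosinophils and macrophages (± SE, limma on jointly scaled reads) for the 19 members tested, in naive colon and in tumors; filled points have an adjusted p under 0.05. Plus-strand members of complexes I and III and mt-Atp6 of complex V lie at the right, mt-Co1 and mt-Atp8 near 0, and mt-Nd6 at the left. Between them, mt-Co2 and mt-Co3 lie at 0.78 and 0.52 in tumors and at 0.25 and 0.08 in naive colon.

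The proportions among mitochondrial reads do not depend on scaling, and they differed between the cell types. Complex IV genes held 4.81% ± 0.233 (SD, n = 7) of mitochondrial reads in tumor eosinophils and 11.1% ± 2.13 (n = 6) in tumor macrophages, with no overlap (4.47% to 5.05% against 8.04% to 13.3%; exact permutation p = 0.00117, adjusted p = 0.0155 over 20 class tests). In naive colon they held 3.37% and 4.93% in eosinophils and 8.41% to 12.1% in macrophages, again without overlap (exact permutation p = 0.0952, the smallest possible; adjusted p = 0.238). Complex V genes held more in tumor eosinophils than in tumor macrophages, 47.7% ± 2.86 against 40.6% ± 3.43 (exact permutation p = 0.00233, adjusted p = 0.0155). In naive colon their shares overlapped, 40.2% and 43.5% in eosinophils against 35.1% to 44.4% in macrophages (exact permutation p = 0.476, adjusted p = 0.733). mt-Atp6 alone held a mean of 47.6% of mitochondrial reads in tumor eosinophils and 40.3% in tumor macrophages. These 2 classes and the transfer RNAs in tumors were the 3 of 20 class tests that were called.

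The ratio of mt-Atp6 to mt-Co1 reads, formed within each library, was also higher in eosinophils. It was 25.9 and 31.8 in naive eosinophils, 25.1 to 39.1 in tumor eosinophils, 6.90 to 16.3 in naive macrophages and 5.75 to 15.1 in tumor macrophages. Among macrophages the complex IV share followed the library sets, with 8.04% to 8.99% in naive libraries 1, 3 and 5 and tumor libraries 1 and 2, and 11.2% to 13.3% in the other 6. Either set lay above every eosinophil library. Within a set, tumor and naive macrophages were close: the difference of means was 0.78 points in the first set and -0.10 in the second.

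**Figure D4:**
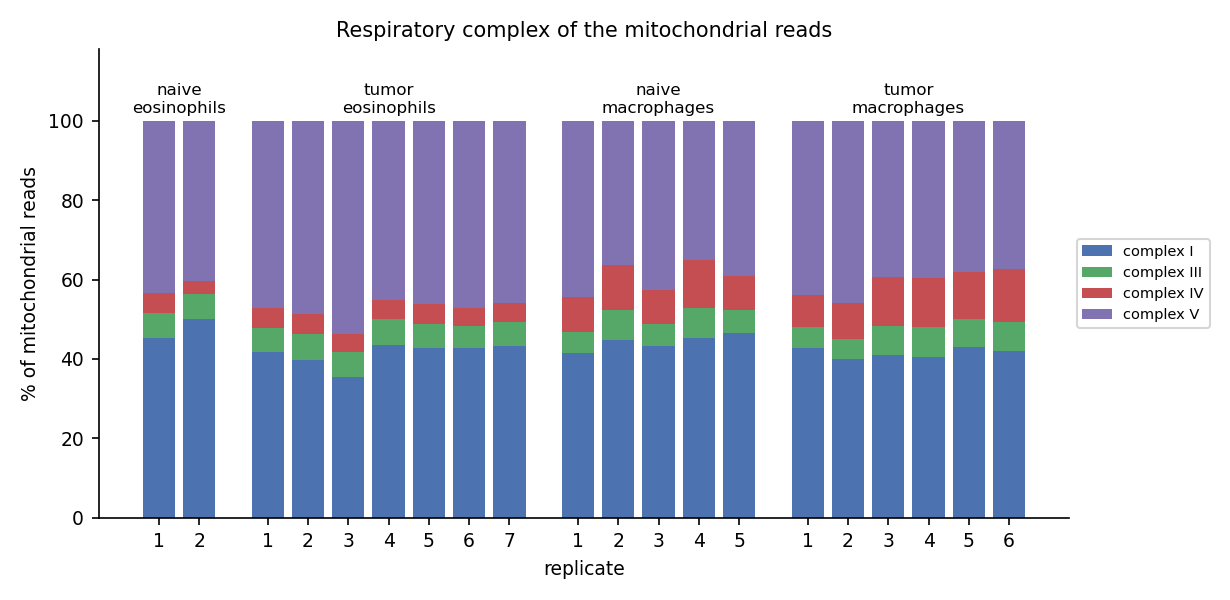
Share of mitochondrial reads from genes of complexes I, III, IV and V (percent) in each library, grouped by cell type and tissue; transfer RNAs are too few to be seen. Complex IV takes 3.37% to 5.05% in eosinophil libraries and 8.04% to 13.3% in macrophage libraries.

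mt-Nd6 is the only protein-coding gene on the minus strand, and it went the opposite way to the other complex I genes. It held 5.22 and 3.37 CPM in naive eosinophils (39 and 15 reads), 2.70 to 6.50 in tumor eosinophils, 7.37 to 19.6 in naive macrophages and 17.3 to 24.5 in tumor macrophages. Every macrophage library lay above every eosinophil library. The log2 difference was -1.65 ± 0.27 in tumors (limma, adjusted p = 3.1e-05) and -1.15 ± 0.40 in naive colon (limma, adjusted p = 0.0340). The naive call was lost with no filter (adjusted p = 0.0530) and without either naive eosinophil library or naive macrophage library 2, 4 or 5. The 9 members annotated on the minus strand, mt-Nd6 and 8 transfer RNAs, summed to 6.43 and 6.96 CPM in naive eosinophils, 5.52 to 10.7 in tumor eosinophils, 16.5 to 38.6 in naive macrophages and 22.1 to 31.0 in tumor macrophages. That sum was formed after the values had been seen and carries no test.

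**Figure D5:**
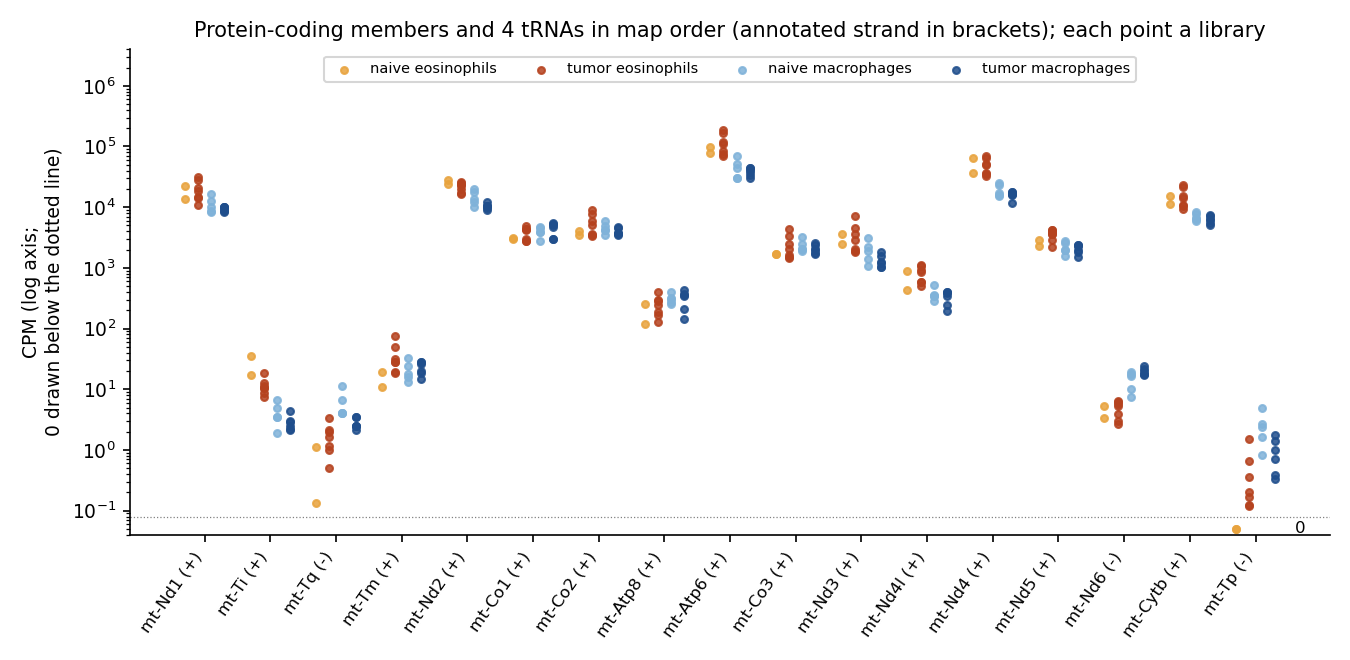
Levels in CPM (log axis, with 0 drawn below the dotted line) of the 13 protein-coding members and 4 transfer RNAs in map order, with the annotated strand in brackets; each point is a library and colours give the 4 groups. mt-Atp6 and mt-Nd4 are highest, and mt-Nd6 holds 2.70 to 24.5 CPM. In naive colon mt-Ti and mt-Tq, neighbours on opposite strands, go in opposite directions between the cell types. In tumors the mt-Tq values overlap, 0.496 to 3.37 CPM in eosinophils and 2.17 to 3.49 in macrophages.

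Transfer RNAs gave few reads, 5080 over all libraries, and lack the poly(A) tail of mRNAs. The 22 genes all had a read somewhere, and 6 of them (mt-Tg, mt-Ti, mt-Tm, mt-Tp, mt-Tq and mt-Tt) passed the filter of the joint fit. The sequences of the 3 that were called in naive colon are shown whole, with capitals for the bases shared by mt-Ti (chrM:3706-3774, plus strand) and its neighbour mt-Tq (chrM:3772-3842, minus strand). mt-Tp lies at chrM:15356-15422 on the minus strand.
mt-Ti: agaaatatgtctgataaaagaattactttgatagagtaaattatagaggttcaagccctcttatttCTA
mt-Tq: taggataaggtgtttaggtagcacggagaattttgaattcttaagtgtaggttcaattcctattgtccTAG
mt-Tp: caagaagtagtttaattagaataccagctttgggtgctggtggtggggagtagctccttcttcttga

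mt-Ti, the transfer RNA for isoleucine, was the member with the largest eosinophil excess. It held 17.4 and 35.0 CPM in naive eosinophils (130 and 156 reads), 7.58 to 18.4 in tumor eosinophils, 1.89 to 6.77 in naive macrophages and at most 4.35 in tumor macrophages (5 to 30 reads), with no overlap between cell types. The log2 difference was 3.13 ± 0.47 in naive colon (limma, adjusted p = 1.9e-05) and 2.32 ± 0.31 in tumors (limma, adjusted p = 3e-06). Per 1000 reads of mt-Nd1, the gene just before it, there were 1.41 ± 0.218 reads of mt-Ti in naive eosinophils, 0.644 ± 0.274 in tumor eosinophils, 0.361 ± 0.114 in naive macrophages and 0.309 ± 0.109 in tumor macrophages.

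The minus-strand mt-Tq and mt-Tp, for glutamine and proline, had their highest values in naive macrophages. mt-Tq had 1 and 5 reads in the naive eosinophil libraries, 0.134 and 1.12 CPM, against 4.06 to 11.2 in naive macrophages (log2 difference -2.71 ± 0.63, limma, adjusted p = 0.00192, not called without naive eosinophil library 1). mt-Tp had no read in either naive eosinophil library, where 3 reads over the pooled libraries would give 0.252 CPM. Its mean in naive macrophages was 2.50 CPM, and no fold is drawn from these values. It reached the filter in 2 naive macrophage libraries and in no other library, so its test in naive colon supports nothing. In tumors the log2 differences were -0.42 ± 0.42 for mt-Tq and -0.65 ± 0.50 for mt-Tp, and neither passed. mt-Tm, for methionine, was higher in tumor eosinophils, 18.9 to 76.0 CPM against 14.9 to 28.7 in tumor macrophages (log2 0.94 ± 0.30, limma, adjusted p = 0.0143). That call of mt-Tm was also lost with column-sum scaling (0.52, adjusted p = 0.151), nuclear-read scaling (0.78, adjusted p = 0.0590) and without tumor eosinophil libraries 1 to 3 (0.64, adjusted p = 0.0676).

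Both ribosomal RNAs, mt-Rnr1 and mt-Rnr2, are listed at 0 in all 20 libraries, although the transcripts around them on the same strand were counted. Rows of nuclear ribosomal RNA type were also almost empty, with 330 reads over all libraries in 55 of 353 rows. The sources used here give no reason, so no level is drawn for these genes, and the shares above are shares of reads without mitochondrial ribosomal RNA.

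Cells of tumors were then compared with cells of naive colon. In eosinophils none of 16 members tested was called, where 4.63% of all 12984 genes were called (2.42% higher and 2.21% lower), and 1 had an unadjusted p under 0.05 (limma); edgeR also called 0. mt-Atp6 differed by 0.14 ± 0.56 on the log2 scale, mt-Nd4 by -0.26 ± 0.50, mt-Nd2 by -0.47 ± 0.39 (adjusted p = 0.547) and mt-Tm by 0.96 ± 0.51 (adjusted p = 0.327). mt-Ti had the smallest p, with -1.33 ± 0.42 (limma, adjusted p = 0.0955), and the lowest naive library lay just below the highest tumor library. With 2 naive libraries such a test has little reach. In simulated tables with these library numbers and depths, limma called 34% of 100 genes changed by 2 log2 units and 3% of 100 changed by 1. All genes had the same dispersion there, 12784 were unchanged and no library sets were built in. These figures need not hold for the real libraries.

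In macrophages 15 of 16 members tested had a negative tumor effect and 1 was called, against 17.1% of all 11536 genes (8.49% higher and 8.61% lower). Members are cut from shared precursors, so their signs are not independent of each other. The called member was mt-Tq, at 4.06 to 11.2 CPM in naive and 2.17 to 3.49 in tumor macrophages, with no overlap (log2 change -1.14 ± 0.30, limma, adjusted p = 0.0148). It met the filter through naive libraries, at normalised values of 17.8 to 43.9. Tumor libraries alone, at 7.83 to 14.0 (median 9.58), would not have met the filter of 10 in 5 libraries. The call stayed with no filter on low values and was lost with the replicate block (limma, adjusted p = 0.0853). The tested members had a median log2 change of -0.39, against 0.02 for all genes. Next came mt-Nd2, with 20054, 18064, 13723, 12165 and 10107 CPM in naive and 12261 to 9091 in tumor macrophages (-0.68 ± 0.23, limma, adjusted p = 0.0564). mt-Nd3 changed by -0.68 ± 0.28 (adjusted p = 0.118), mt-Atp6 by -0.39 ± 0.30 (adjusted p = 0.414) and mt-Nd6 by 0.34 ± 0.23 (adjusted p = 0.338).

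Markers of cell types also moved between the same macrophage groups, where 17.1% of all genes were called (8.49% higher and 8.61% lower). Of 12 macrophage markers 0 were higher and 2 lower in tumors. Of 9 neutrophil markers tested 6 were higher in tumor macrophages, and their mean sum was 44.2 nuclear CPM in naive and 442 in tumor libraries, without overlap. All 4 erythrocyte markers tested were lower, with sums of 325 to 5568 in naive and 138 to 580 in tumor libraries, and so were 5 of 9 stroma and endothelium markers, 770 to 3479 against 334 to 805. Of 11 epithelial markers 3 were higher and 1 lower, with sums of 627 to 4387 and 1467 to 2578. Immediate-early genes, which cells switch on within minutes of disturbance, were lower for 13 and higher for 1 of 20, with sums of 29702 to 39603 in naive and 14480 to 29957 in tumor libraries. Of 4 nuclear-retained RNAs 3 were lower, 2644 to 6346 against 1209 to 4255. In eosinophils 4.63% of all genes were called (2.42% higher and 2.21% lower). Of 12 eosinophil markers 0 were higher and 3 lower in tumors. Of 13 neutrophil markers 4 were higher and 0 lower, and of 9 macrophage markers 4 and 0. Of 12 epithelial and 10 stroma and endothelium markers 1 each was lower. Immediate-early genes were lower for 13 and higher for 2 of 20. They summed to 47398 and 51900 in naive and 11834 to 23747 in tumor libraries. The part of these markers in the tumor effects on members was not tested.

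With the library set added as a term to this macrophage fit, 3 members were called, all lower in tumors, where 19.9% of all genes were called. They were mt-Tq (-1.19 ± 0.31, limma, adjusted p = 0.0146), mt-Nd2 (-0.53 ± 0.16, adjusted p = 0.0277) and mt-Nd3 (-0.42 ± 0.14, adjusted p = 0.0416). The estimates for mt-Nd2 and mt-Nd3 were smaller than without the term and so were their standard errors. This fit was chosen after the sets had been seen.

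Whether the tumor effect differed between the cell types was tested as an interaction, and 0 of 19 members passed, where 4.16% of all 14992 genes did (1.87% higher and 2.29% lower). The limma p was under 0.05 before adjustment for 2 of them, mt-Tp and mt-Tq, and edgeR called 0. mt-Tp passed the filter through naive macrophages alone. For mt-Tq the difference of effects was 2.29 ± 0.75 (adjusted p = 0.0910). It had few reads in naive eosinophils, and without tumor eosinophil libraries 1 to 3, or without naive eosinophil library 2, mt-Tq was called.

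Variation among libraries of a group differed between members. In naive macrophages the highest library exceeded the lowest 3.37-fold for mt-Nd3, 2.75-fold for mt-Atp6 and 2.38-fold for mt-Nd2, but only 1.59-fold for mt-Co1 and 1.39-fold for mt-Atp8, on the authors' normalised values. In tumor eosinophils the ratio was 4.13 for mt-Tm, 3.81 for mt-Nd3, 2.65 for mt-Atp6, 1.72 for mt-Co1 and 1.59 for mt-Nd2. The within-group SD on the log2 scale was 0.54 for mt-Atp6 in eosinophils and 0.48 in macrophages. Nuclear genes with a mean normalised value of at least 1000 had median SDs of 0.44 (570 genes) and 0.26 (482 genes), so mt-Atp6 lay above the median SD of these nuclear genes in both tables, and mt-Cytb, at 0.20, below it in macrophages. These nuclear genes were not matched to the members in abundance.

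Nuclear genes that serve the mitochondrial genome are described by counts, beside shares of all genes of 18.9% higher and 24.2% lower in tumors and 14.7% higher and 15.5% lower in naive colon. Nuclear subunits of complex I were called higher for 2 and lower for 15 of 36 in tumor eosinophils against tumor macrophages, and for complex V the counts were 0 higher and 10 lower of 16. Counts were 0 and 3 of 4 for complex II, 1 and 3 of 9 for complex III and 4 and 5 of 10 for complex IV. In naive colon they were 0 and 6 for complex I, 0 and 2 for complex II, 0 and 3 for complex III, 1 and 1 for complex IV and 0 and 4 for complex V. Examples are Atp5f1, a stalk subunit of the ATP synthase (-0.97 ± 0.17, limma, adjusted p = 8.08e-05, tumors), Sdhb, the iron-sulfur subunit of complex II (-0.97 ± 0.17, adjusted p = 9.37e-05), and Cox6b1 of complex IV, which was higher (0.98 ± 0.16, adjusted p = 4.83e-05).

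Of 6 genes of mitochondrial transcription tested, 0 were higher and 2 lower in tumor eosinophils than in tumor macrophages, and in naive colon 0 were called in either direction. The lower genes were Tefm, a transcription elongation factor (-0.92 ± 0.30, limma, adjusted p = 0.0163), and Mrpl12 (-0.87 ± 0.28, adjusted p = 0.0152). Of 24 RNA processing and stability genes, 0 were higher and 8 lower in tumor eosinophils, and 0 and 6 in naive eosinophils. Lrpprc (-1.46 ± 0.21, limma, adjusted p = 4.96e-06) and Slirp (-1.51 ± 0.21, adjusted p = 5.66e-06), which form a complex that stabilises mitochondrial mRNAs, were among the lower genes in tumors. Slirp was lower in naive colon as well (-1.98 ± 0.32, adjusted p = 4.58e-05). Of 77 mitochondrial ribosomal proteins tested, 5 were higher and 24 lower in tumors, and 3 and 18 in naive colon. Tufm, an elongation factor of mitochondrial translation, was lower in naive eosinophils (-2.52 ± 0.52, adjusted p = 6.32e-04).

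Of 8 genes that copy or package the mitochondrial DNA, 1 was higher and 3 lower in tumor eosinophils, and 1 and 1 in naive colon. Polg, the catalytic subunit of its polymerase, was higher in eosinophils in tumors (1.49 ± 0.25, limma, adjusted p = 4.99e-05) and in naive colon (1.76 ± 0.38, adjusted p = 9.2e-04). Ssbp1, its single-strand binding protein, was lower (-1.61 ± 0.29, adjusted p = 1.03e-04, and -1.87 ± 0.43, adjusted p = 0.00192). Of 10 biogenesis regulators, 1 was higher and 3 lower in tumors, and 2 and 2 in naive colon. Gabpb1, a subunit of nuclear respiratory factor, was higher in tumor eosinophils (1.53 ± 0.25, adjusted p = 3.11e-05) and Myc lower (-1.65 ± 0.48, adjusted p = 0.00814). Of 9 mitophagy genes, 2 were higher and 2 lower in tumors, and 1 and 2 in naive colon. In tumors Fundc1, a receptor on the outer membrane, was lower (-2.18 ± 0.26, adjusted p = 5.1e-07) and Sqstm1, an autophagy adaptor, higher (0.90 ± 0.20, adjusted p = 0.00117).

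Between tumor and naive cells the calls among these nuclear genes stand beside 4.63% of all genes called in eosinophils and 17.1% in macrophages. In eosinophils 1 of 10 biogenesis regulators and 1 of 9 mitophagy genes were called: Myc rose by 3.06 ± 0.77 on the log2 scale (limma, adjusted p = 0.0414) and the mitophagy receptor Optn by 2.90 ± 0.59 (adjusted p = 0.0164), and no gene of the respiratory complexes, mitochondrial ribosome, RNA processing, translation, replication or transcription lists was called. In macrophages 2 of 9 mitophagy genes were called: Bnip3, a mitophagy receptor known as a hypoxia-induced gene, rose by 1.69 ± 0.16 (limma, adjusted p = 5.42e-06) and Optn by 1.73 ± 0.51 (adjusted p = 0.0280). Atp5b of complex V (0.46 ± 0.12, adjusted p = 0.0139) and Cox5a of complex IV (0.47 ± 0.13, adjusted p = 0.0176) rose there, each the only call among the 16 and 10 nuclear genes of its complex, and 0 of 36 nuclear complex I subunits was called. Of 77 mitochondrial ribosomal proteins, Mrps18b rose (0.66 ± 0.17, limma, adjusted p = 0.0149) and Mrpl42 (-0.44 ± 0.13, adjusted p = 0.0269) and Mrps5 (-0.45 ± 0.13, adjusted p = 0.0279) fell. Of 23 RNA processing genes Fastkd3 rose (1.20 ± 0.31, limma, adjusted p = 0.0157), and of 10 biogenesis regulators Gabpb1 rose (0.72 ± 0.21, adjusted p = 0.0285). The tumor eosinophil libraries 1 to 3, with the highest mitochondrial shares, also had the highest sums of nuclear complex I genes, 2484, 2988 and 2529 nuclear CPM, against 1422 to 1766 in the other 4 tumor and 1307 to 1489 in the 2 naive libraries.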

How the data were processed

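For each cell type the authors deposited a table of normalised signal, gene read counts divided by a factor per library, with 50600 gene rows. Per the submitters' processing notes, the tools were DESeq2 1.14.1, HTSeq 0.6.1, TopHat2 2.1.0 with Bowtie2 2.2.6, FastQC 0.11.5 and Trim Galore, on the build GRCm38.p5. The sources used here do not give their settings, the annotation, the use of strand or how the 3 technical replicates per sample were combined. Every non-zero deposited value (100% of 374526) was a whole multiple of what 1 read was worth in its library, within 0.1 read, so read counts were recovered. The 27 rows named by bare numbers took up to 0.132% of the reads and name no gene.

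Shares were compared by exact permutation over libraries. Genes were tested with limma 3.58.1 (R 4.3.3) on log2(value + 1): within a table on the authors' values (10 or more in 2 eosinophil or 5 macrophage libraries), across tables on recovered reads of all 4 groups scaled by TMM factors (edgeR 4.0.16). Fold changes on this scale understate those of low genes. A call is a Benjamini-Hochberg adjusted p under 0.05 over all genes tested. Run on recovered reads as an alternative, the edgeR quasi-likelihood test called 532 genes (0 members) for tumor against naive eosinophils, 1949 (2) for macrophages, 4464 (11) between naive cells, 6938 (13) between tumor cells and 609 (0) for the interaction. Scripts were tested on simulated data. Words of 50 bases were compared with GENCODE M21 transcripts, the source of coordinates and of all sequences shown. The members, the nuclear lists and the markers were chosen with earlier results of these data known. Values per library or group are given for members with a mean of at least 100 in a table and for the low members tested, and up to 3 called genes with the smallest p are named per nuclear list, not all of them in every comparison. Alternatives were other pseudocounts, filters, scalings and tests, a replicate block and leaving out libraries.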

Additional observations from a re-analysis of the deposited data

Results flagged for a closer look

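Of 55 groups of 4 to 10 values checked for a library far from the rest, 2 held one, and chance flags about 1 in 20 such groups. Complex V genes took 53.7% of mitochondrial reads in tumor eosinophil library 3, against 45.2% to 48.6% in the other 6. The normalised value of mt-Nd2 was 49068 in tumor macrophage library 1, against 32728 to 37731 in the other 5 libraries of that group.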

How the results depend on the processing

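The larger share in tumor eosinophils than in tumor macrophages kept its direction and its call under the alternatives run (12.8 to 16.1 points with 1 library left out, 8.95 without tumor eosinophil libraries 1 to 3). The share of tumor minus naive eosinophils ran from -0.37 to 6.27 points with 1 library left out and was -2.74 without tumor eosinophil libraries 1 to 3; that of macrophages was 0.72 in the set of libraries with positive loadings and -3.30 in the other. Class tests called 3 to 4 with 1 library left out. With 1 library left out, the members called were 0 to 1 for tumor against naive eosinophils (1, mt-Ti, without naive library 1), 1 to 4 for macrophages (4 without naive library 2 and 2 without tumor library 1), 4 to 12 between naive cells (7 without naive eosinophil library 1, 4 without library 2, and 7 without naive macrophage library 2 or 4), 12 to 13 between tumor cells and 0 to 1 for the interaction (1 without naive eosinophil library 2). For macrophages edgeR called 2 and the library set term gave 3. Between naive cells, 7 members were called with no filter, 7 scaled by the column sum (4 higher and 3 lower) and 7 scaled by nuclear reads. Between tumor cells 10 were called under either scaling and 10 without tumor eosinophil libraries 1 to 3, mt-Co2 and mt-Tm being lost each time. The interaction gave 1 without tumor eosinophil libraries 1 to 3. The cause of these moves was not tested.

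Signs turned for members near 0. Between naive cells, column-sum scaling gave -0.35 for mt-Co1, -0.26 for mt-Co2 and -0.42 for mt-Co3, and nuclear-read scaling -0.18, -0.0859 and -0.25. Between tumor cells, mt-Atp8 was -0.34 and -0.0795 under these scalings and -0.26 without tumor eosinophil libraries 1 to 3, and mt-Co1 was -0.23 under column-sum scaling and -0.0503 without those libraries. mt-Atp6 between tumor and naive eosinophils was -0.24 without them. With 1 library left out, mt-Atp6 ran from -0.19 to 0.46 and mt-Nd4 from -0.83 to 0.32 between tumor and naive eosinophils, mt-Atp8 from -0.75 to 0.15 and mt-Co3 from -0.0136 to 0.20 between naive cells, and mt-Atp8 from -0.10 to 0.20 between tumor cells. Of 1240 recomputed values of 45 single results, 1150 kept direction and call, 47 lost the call, 21 gained one and 22 turned sign.

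Replicate numbers shared by naive and tumor libraries showed no sign of pairing in macrophages. Deviations of same-numbered libraries correlated there at -0.310 to 0.055, against -0.284 to 0.251 for other pairs. In eosinophils same-numbered libraries correlated at 0.128 and 0.124, above all other pairs (at most 0.062). The deviations of 2 naive libraries are mirror images of each other, so that check cannot decide whether eosinophil libraries are paired. With the replicate block the members called were 0 for eosinophils, 0 for macrophages, 8 between naive cells, 12 between tumor cells and 0 for the interaction. The same libraries without the block gave 1 for macrophages (mt-Tq, adjusted p = 0.0853 with the block), 12 between naive cells and 13 between tumor cells. The block lost mt-Atp6, mt-Nd1, mt-Nd2 and mt-Nd5 between naive cells and mt-Atp6 between tumor cells. mt-Nd4 between tumor and naive eosinophils was 0.0813 with the block and 0.0813 on the same libraries without it.

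Low transfer RNAs rest on few reads, nuclear copies that reach the 3′ end make 6 protein-coding members uncertain (mt-Nd4 shares words with its copy only further upstream), and 2 naive eosinophil libraries limit every comparison with them.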
